A study of Arabidopsis thaliana with 134 samples.

Results

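The photoreceptor genes of Arabidopsis thaliana described here are the phytochromes PHYA (AT1G09570), PHYB (AT2G18790), PHYC (AT5G35840), PHYD (AT4G16250) and PHYE (AT4G18130), the cryptochromes CRY1 (AT4G08920) and CRY2 (AT1G04400), the phototropins PHOT1 (AT3G45780) and PHOT2 (AT5G58140), and the UV-B receptor UVR8 (AT5G63860). They were chosen by their locus identifiers, and they make up 10 of the 28775 genes in the deposited table. All 10 were among the 18111 genes with a mean of at least 1 TPM (a transcript abundance) over the lines, which were the genes tested. TPM is scaled for transcript length and library size, so that levels of different genes can be set side by side.

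RNA was sequenced from whole seedlings aged 12 days, harvested 10 h after dawn (zeitgeber time, ZT) in days of 8 h of light and 16 h of dark. One set of plants had stayed in the light for 2 h past the usual lights-off at ZT 8 h, and the control plants had spent those 2 h in the dark. The plants were 65 recombinant inbred lines (RILs), read as inbred progeny of the accessions Tnz-1 and Ws-2 and labelled WT with a number, and the parents Tnz-1 and Ws-2 themselves. Each line and each parent gave 1 library per condition, which made 65 light and 65 dark RIL libraries and 4 parental libraries, and all groups were grown on MS medium with sucrose. Light and dark plants stood in different cabinets, so the light and the cabinet cannot be told apart. In RNA from whole seedlings, fewer cells of a type and less RNA per cell cannot be told apart either.

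The depth per library is unknown, because TPM keeps no read totals, and the number of genes listed at 0 ran from 7999 to 10459 in the light and from 8017 to 10268 in the dark RIL libraries. Summed TPM of 4 shoot markers was 21449 to 40978 in the light and 22876 to 35849 in the dark RIL libraries, and that of 5 root markers was 10.3 to 151 in the light and 9.83 to 156 in the dark. In the light the shoot sum had a median of 30706 TPM and RBCS1A alone 23712 TPM. The shoot marker LHCB2.1 had medians of 0.77 TPM in the light and 0.49 TPM in the dark, and was at 0 in 9 RIL libraries. For the root markers the median sum in the light was 56.75 TPM, and CASP1 alone had 50.3 TPM. Of the root markers, the nitrate transporter gene NRT2.1 was listed at 0 in 72 of the 130 RIL libraries. The 5 seed storage and oil body markers summed to 0.88 to 7687 in the light and 1.76 to 14769 in the dark RIL libraries, and to 11044 in the light and 13093 in the dark in Tnz-1, against 218 in the light and 373 in the dark in Ws-2. Their part in the results was not tested. At 641 genes with very different levels in the parents, 14 pairs of lines carried nearly the same calls, so that 51 lines were distinct.

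Phytochromes are red and far-red light receptors that switch between an inactive and an active form. The phytochrome A protein is light-labile and acts in far-red and very weak light, whereas phytochromes B to E are light-stable, with phytochrome B the main receptor for red light. Cryptochromes and phototropins absorb blue light through flavins: the cryptochromes act on growth and flowering, and the phototropins are membrane-bound kinases for phototropism, chloroplast movement and stomatal opening. UVR8 senses UV-B through its own tryptophans and then binds the ubiquitin ligase component COP1. Ws, the accession group of Ws-2, is known to carry a natural short deletion in the PHYD coding sequence.

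The stretches just before the annotated starts of PHYA, PHYB and PHYD are shown because PHYA had the strongest fall of the 10 genes in the light, PHYB the strongest rise, and PHYD is the closest relative of PHYB. They come from the TAIR10.1 reference genome (RefSeq), made from the Columbia accession, and not from Tnz-1 or Ws-2. PHYA is given at chr1:3100820-3101069 on the minus strand, PHYB at chr2:8139506-8139755 on the plus strand, and PHYD at chr4:9199841-9199971 on the minus strand, where the neighbouring gene AT4G16260 begins beyond 131 bases. Capitals mark the G-box CACGTG, a core sequence bound by the transcription factors HY5 and PIF.
PHYA: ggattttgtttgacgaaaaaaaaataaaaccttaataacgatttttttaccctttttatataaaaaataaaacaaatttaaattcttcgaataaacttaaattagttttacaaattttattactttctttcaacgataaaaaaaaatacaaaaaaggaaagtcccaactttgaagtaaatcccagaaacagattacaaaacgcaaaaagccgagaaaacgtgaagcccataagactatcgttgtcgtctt
PHYB: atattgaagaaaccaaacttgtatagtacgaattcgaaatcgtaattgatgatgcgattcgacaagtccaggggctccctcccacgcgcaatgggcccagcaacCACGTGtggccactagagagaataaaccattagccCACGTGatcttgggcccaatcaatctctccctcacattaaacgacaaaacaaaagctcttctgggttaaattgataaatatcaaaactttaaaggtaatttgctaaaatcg
PHYD: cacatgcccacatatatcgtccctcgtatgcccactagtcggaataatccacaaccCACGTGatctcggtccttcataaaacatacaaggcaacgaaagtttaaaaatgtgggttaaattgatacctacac
PHYB held the G-box at 146 to 141 and at 111 to 106 bases before its annotated start, and PHYD at 75 to 70 bases. Both strands of the 250 bases before the start were searched for the G-box, for the I-box GATAAG, for the evening element AAATATCT and for the CCA1-binding site AAAAATCT, none of which overlapped. No other match to these letters lay in the windows of the 10 genes. Of 27443 windows of all annotated genes, 6.49% held the G-box, 12.3% the I-box, 4.79% the evening element and 6.69% the CCA1-binding site.

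PHYB and PHYD are sister genes, and the longest stretch their coding sequences share is shown because reads from it could be assigned to either. It was 43 bases long, from base 1946 to 1988 of the 3519 coding bases of PHYB and from base 1958 to 2000 of the 3495 of PHYD.
PHYB and PHYD: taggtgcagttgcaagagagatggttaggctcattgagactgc
The coding sequences were identical at 80.5% of aligned bases. Of the stretches of 31 bases in the annotated transcripts of PHYB, 0.287% also occurred in PHYD, and 0.311% of those of PHYD occurred in PHYB. PHYE shared 0.773% of its stretches with the neighbouring gene SSP4b, PHOT1 shared 0.138% with PHOT2, and PHYA, PHYC, CRY1, CRY2 and UVR8 shared 0.

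Over the lines, 3 of the 10 photoreceptor genes rose in the light (PHYB, PHYD and PHYE), 4 fell (PHYA, CRY1, CRY2 and PHOT1), and PHYC, PHOT2 and UVR8 did not pass an adjusted p of 0.05 (limma on log2(TPM + 1), Benjamini-Hochberg adjustment over all genes tested). That is 7 of 10 genes, where 61.6% of all genes tested passed. Of all genes tested, 36.1% were higher and 25.5% were lower in the light. An absolute log2 change of at least 0.5 with the same threshold was reached by PHYA, PHYB, PHYD and PHYE, and by 18.6% of all genes tested. The median log2 change of the 10 genes was 0.00, beside 0.05 for all genes tested. Blocking on the line, which compares the light and dark library within each line, 10 of 10 photoreceptor genes passed, where 76.8% of all genes tested did. As each line had 1 library per condition, p-values measure the spread between lines and libraries.

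**Figure D1:**
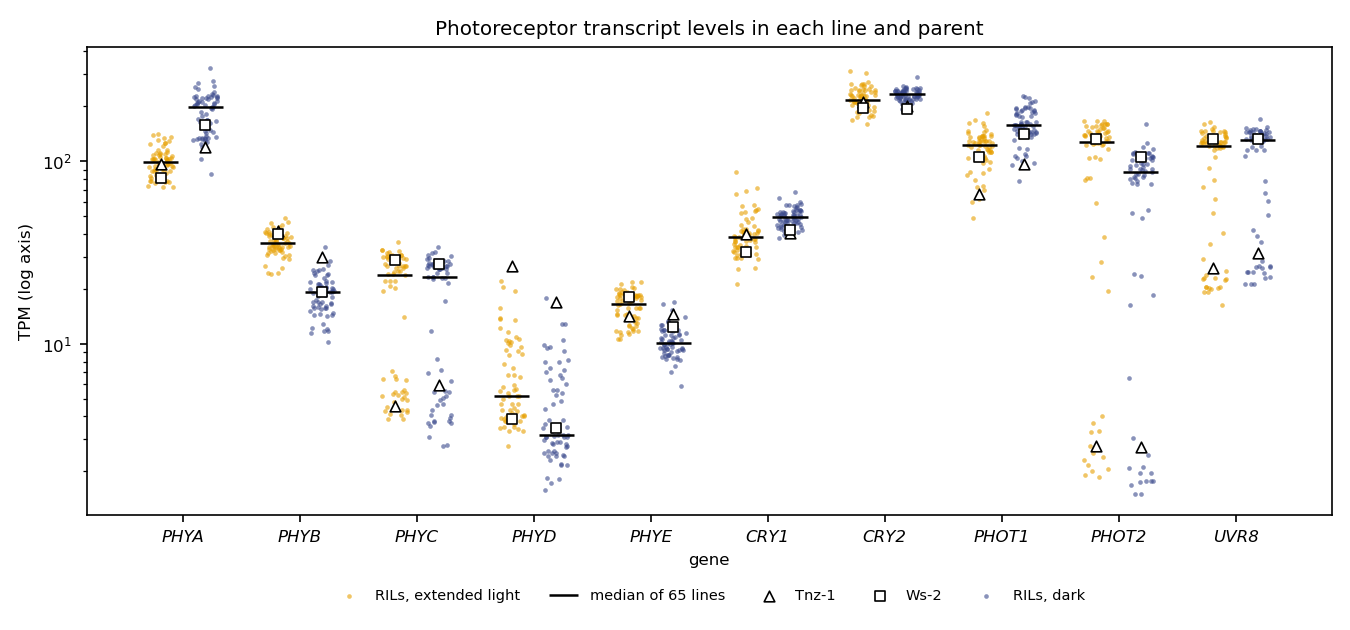
TPM on a log axis of the 10 photoreceptor genes in each of 65 RILs in extended light (orange, left) and in the dark (blue, right), with the median of the lines as a bar, Tnz-1 as a triangle and Ws-2 as a square. For PHYC, PHOT2 and UVR8 most lines lie in a high or a low set, with Ws-2 in the high set and Tnz-1 in the low set.

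PHYA was the photoreceptor gene with the strongest fall. It ranged from 72.1 to 141.9 TPM in the light libraries with a median of 98.8 TPM, and from 85.2 to 323.3 TPM in the dark libraries with a median of 199.1 TPM. The light value was below every dark library in 13 of 65 lines, and the remaining values overlapped. PHYA was lower in the light in 63 of 65 lines, and the log2 change was -0.87 (SE 0.0561, limma adjusted p = 5.24e-30, n = 65 lines). In lines 42 and 55 it was not lower. The mean log2 change was -1.32 in lines 1 to 19, -0.84 in lines 21 to 39, -0.47 in lines 40 to 57 and -0.80 in lines 58 to 78, which are ranges of line number and not batches named in the labels.

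PHYB went the other way in every line. It ranged from 24.1 to 48.6 TPM in the light, with a median of 35.7 TPM, and from 10.3 to 33.9 TPM in the dark, with a median of 19.2 TPM. In 42 of 65 lines the light value lay above every dark library. PHYB was higher in the light in 65 of 65 lines, with a log2 change of 0.90 (SE 0.0497, limma adjusted p = 4.98e-36) and a median ratio of light to dark of 1.91. The smallest change was 0.33 on the log2 scale, in line 41.

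PHYD, which acts beside phytochrome B in shade avoidance, had the lowest median of the 10 genes over the lines in both conditions. It ranged from 2.76 to 22.1 TPM in the light with a median of 5.20 TPM, and from 1.59 to 17.9 TPM in the dark with a median of 3.18 TPM. The 2 conditions overlapped widely, since lines differed more than light and dark did. Within lines, PHYD was higher in the light in 59 of 65, and the log2 change was 0.50 (SE 0.116, limma adjusted p = 7.67e-05).

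PHYE, another light-stable phytochrome, rose as well. It ranged from 10.6 to 21.8 TPM in the light with a median of 16.6 TPM, and from 5.88 to 17.04 TPM in the dark with a median of 10.2 TPM. The light value was above every dark library in 31 of 65 lines. PHYE was higher in the light in 64 of 65 lines, with a log2 change of 0.57 (SE 0.0459, limma adjusted p = 1.19e-22).

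PHYC, whose protein depends on phytochrome B to be stable, had 3.86 to 36 TPM in the light with a median of 23.8 TPM, and 2.77 to 33.9 TPM in the dark with a median of 23.2 TPM. Most lines lay in a low or a high set. The log2 change was 0.08 (SE 0.196, limma adjusted p = 0.744), and 41 of 65 lines were higher in the light. The same change had an adjusted p of 0.0247 when the line was a block. It was close to the median log2 change of all genes tested, 0.05. Under median-of-ratios scaling, where the line was not a block, PHYC changed by 0.05 (adjusted p = 0.86).

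The cryptochrome genes were lower in the light, with smaller changes than PHYA. CRY1, which inhibits stem growth in blue light, ranged from 21.2 to 87.7 TPM in the light with a median of 38.7 TPM, and from 38.1 to 67.7 TPM in the dark with a median of 49.3 TPM. It lay below every dark library in 31 lines and above every dark library in 3 lines. CRY1 was lower in the light in 56 of 65 lines, with a log2 change of -0.31 (SE 0.0488, limma adjusted p = 8.45e-09). By line number the mean log2 change was -0.56 in lines 1 to 19, -0.31 in lines 21 to 39, -0.03 in lines 40 to 57 and -0.34 in lines 58 to 78.

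CRY2, a receptor whose protein is broken down in blue light and which promotes flowering, was the most abundant of the 10 genes by median in both conditions. It ranged from 159.7 to 311.2 TPM in the light with a median of 217.4 TPM, and from 193.7 to 289.9 TPM in the dark with a median of 234.5 TPM. The ranges overlapped in most lines. The log2 change was -0.08 (SE 0.0271, limma adjusted p = 0.0111; -0.12 under median-of-ratios scaling), and CRY2 was lower in the light in 44 of 65 lines. The mean change was 0.08 in lines 40 to 57, against -0.21, -0.13 and -0.04 in lines 1 to 19, 21 to 39 and 58 to 78, so the direction did not hold in every range of line number.

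The phototropin genes differed from each other. PHOT1, the receptor for phototropism in weak blue light, ranged from 48.8 to 183.7 TPM in the light with a median of 123.0 TPM, and from 77.9 to 227.2 TPM in the dark with a median of 158.2 TPM. It was lower in the light in 64 of 65 lines, all but line 47, with a log2 change of -0.44 (SE 0.0604, limma adjusted p = 1.13e-10). PHOT2, which serves chloroplast avoidance in strong blue light, ranged from 1.86 to 166.4 TPM in the light with a median of 127.4 TPM, and from 1.51 to 159.5 TPM in the dark with a median of 87.0 TPM. Its log2 change was 0.42 (SE 0.369, limma adjusted p = 0.337), 58 of 65 lines were higher in the light, and blocking on the line gave an adjusted p of 1.9e-17.

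UVR8 ranged from 16.3 to 163.7 TPM in the light with a median of 121.8 TPM, and from 21.2 to 170.9 TPM in the dark with a median of 130.6 TPM. As for PHYC and PHOT2, most lines lay in a low or a high set in both conditions, and 4 lines lay between the UVR8 levels of the tag classes described below. The log2 change was -0.10 (SE 0.192, limma adjusted p = 0.676), and 46 of 65 lines were lower in the light. Blocking on the line gave an adjusted p of 3.98e-05.

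**Figure D2:**
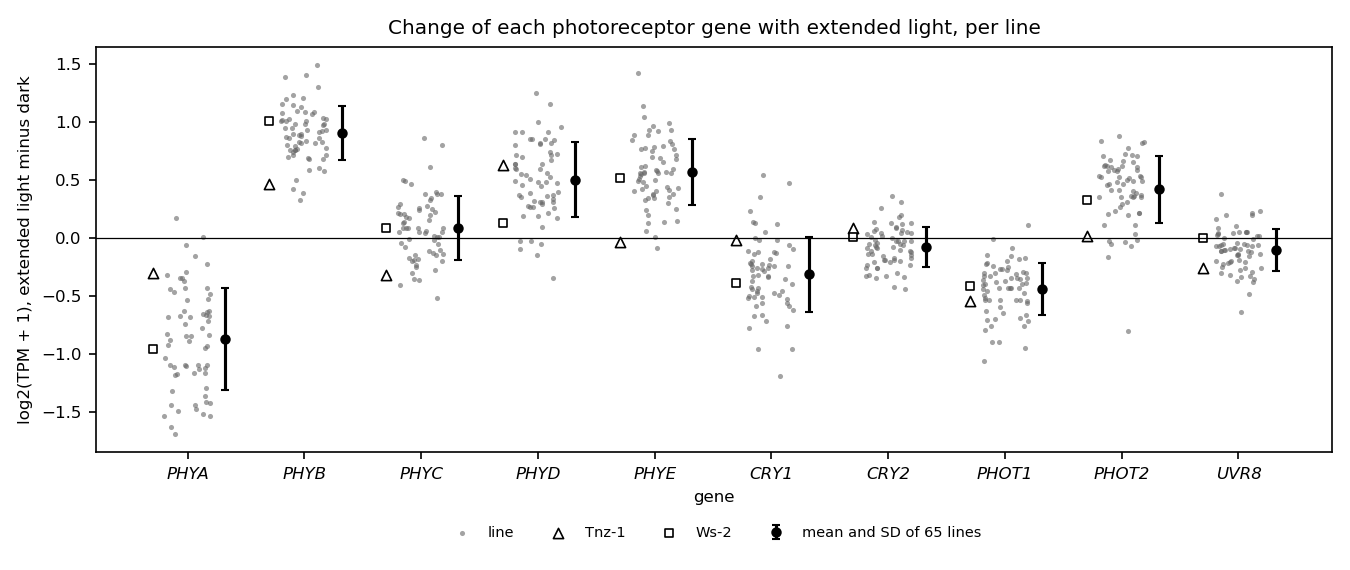
Difference in log2(TPM + 1), extended light minus dark, of each photoreceptor gene in each of 65 lines (grey), with the mean and SD of the lines (black), Tnz-1 (triangle) and Ws-2 (square). PHYB lies above 0 in 65 of 65 lines and PHYA below 0 in 63 of 65, while the points of PHYC, CRY2 and UVR8 lie on both sides of 0.

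By median level the order in the light was CRY2, PHOT2, PHOT1, UVR8, PHYA, CRY1, PHYB, PHYC, PHYE and PHYD. In the dark it was CRY2, PHYA, PHOT1, UVR8, PHOT2, CRY1, PHYC, PHYB, PHYE and PHYD. Neighbours in this order were compared within libraries with a sign-flip permutation test of 100000 resamples, adjusted over the 9 neighbour pairs of a condition. The mean difference did not pass for PHYC and PHYE in the light (adjusted p = 0.39) and for PHOT2 and CRY1 in the dark (adjusted p = 0.29). These means pool lines with opposite differences, so they do not show equal levels. PHYC was above PHYE in 39 of 65 lines, and PHOT2 was above CRY1 in 45 of 65. By the tag classes described below, PHOT2 in the dark had 1.51 to 6.54 TPM in 14 lines and 75.4 to 125.2 TPM in 42. CRY1 in the dark had 38.1 to 67.7 TPM over all lines. For PHOT2 and PHOT1 in the light the medians and the mean log2 difference had opposite signs: PHOT2 was higher in 39 of 65 lines, and its mean log2 difference from PHOT1 was -1.07. The same held for UVR8 and PHYA in the light, at a mean log2 difference of -0.38 with UVR8 higher in 41 lines, and for PHYC and PHYB in the dark, at -0.42 with PHYC higher in 37 lines.

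Lines differed in 9 of the 10 photoreceptor genes irrespective of the light (limma moderated F-test over lines), where 83.9% of all genes tested did. The intraclass correlation (ICC) between the light and the dark library of a line was 0.99 for PHOT2, 0.99 for UVR8, 0.97 for PHYC, 0.88 for PHYD, 0.79 for PHOT1, 0.67 for PHYB, 0.40 for PHYE, 0.37 for CRY2 and 0.34 for CRY1. The median ICC of all genes tested was 0.49. PHYA did not pass (ICC 0.06, adjusted p = 0.26), the lowest ICC of the 10 genes. With each condition centred within the ranges of line number its ICC was 0.35. The F-test with the range as a term did not pass either (adjusted p = 0.28). For CRY2 the call was lost with the range of line numbers as a term (adjusted p = 0.17) and under median-of-ratios scaling (adjusted p = 0.053). The ICC of CRY2 was still 0.37 with each condition centred within these ranges, which the F-test did not do.

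Between the parents 4 of the 10 genes stood far apart, PHOT2, UVR8, PHYC and PHYD. PHOT2 had 2.76 TPM in the light and 2.72 TPM in the dark in Tnz-1, against 132.3 TPM in the light and 105.5 TPM in the dark in Ws-2. UVR8 had 26.04 TPM in the light and 31.3 TPM in the dark in Tnz-1, against 132.3 TPM and 132.7 TPM in Ws-2. PHYC had 4.54 TPM in the light and 5.93 TPM in the dark in Tnz-1, against 28.96 TPM and 27.3 TPM in Ws-2. Only PHYD differed in the other direction by this much, at 26.6 TPM in the light and 16.9 TPM in the dark in Tnz-1, against 3.86 TPM and 3.44 TPM in Ws-2. These 4 genes differed by at least 1 on the log2 scale with the same sign in both conditions (1 higher and 3 lower in Tnz-1), as did 21.9% of all genes tested (1292 higher and 2672 lower in Tnz-1). With 1 library per parent and condition no test was made.

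The other 6 genes differed less between the parents. PHOT1 had 65.9 TPM in the light and 96.3 TPM in the dark in Tnz-1, against 105.8 TPM and 141.2 TPM in Ws-2. PHYA had 96.6 TPM in the light and 119.6 TPM in the dark in Tnz-1, against 81.0 TPM and 157.8 TPM in Ws-2, with log2 differences between light and dark of -0.31 (Tnz-1) and -0.95 (Ws-2). PHYE had 14.2 TPM in the light and 14.6 TPM in the dark in Tnz-1, against 18.1 TPM and 12.4 TPM in Ws-2, with log2 differences of -0.04 (Tnz-1) and 0.51 (Ws-2). PHYB had 41.6 TPM in the light and 29.8 TPM in the dark in Tnz-1, against 39.8 TPM and 19.3 TPM in Ws-2. CRY1 lay between 31.9 and 41.96 TPM and CRY2 between 193.9 and 212.4 TPM in the 4 parental libraries.

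To set each photoreceptor gene beside the parental origin of its chromosome region, lines were classed by their neighbouring genes and not by the photoreceptor gene itself. A tag gene was one whose log2(TPM + 1) differed between the parents by at least 3 in both conditions. The nearest usable tag on each side was taken, 3 to 356 genes away, and a line was called Tnz-1-like or Ws-2-like where its level at both tags lay near that parent in light and dark. PHYA lay between the tags AT1G09200 and HEMA2, PHYB between SCY1 and AT2G18910, PHYC between AT5G33280 and PP2C74, PHYD between DI21 and AT4G16960, and PHYE between AT4G18030 and DEG5. CRY1 lay between AT4G08520 and AT4G08960, CRY2 between AT1G01100 and PFA-DSP1, PHOT1 between XTH31 and AT3G46020, PHOT2 between AT5G56670 and AT5G58980, and UVR8 between AT5G62300 and ERS. Lines whose tags were not called or did not match, between 1 and 12 per gene, were left out.

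All 10 photoreceptor genes differed in level with the class of their own flanking tags (limma on the mean of the light and dark log2 level of a line, adjusted over all genes tested): 3 were higher in Tnz-1-like lines and 7 were lower. The shares given below are of all genes tested, wherever they lie, with the classes of that photoreceptor gene. How often other genes differ with the class of their own flanking tags was not computed. PHOT2 had 1.86 to 4.04 TPM in the light and 1.51 to 6.54 TPM in the dark in the 14 Tnz-1-like lines, against 103.6 to 166.4 TPM in the light and 75.4 to 125.2 TPM in the dark in the 42 Ws-2-like lines. The classes did not overlap, the log2 difference was -5.13 (SE 0.0618, adjusted p = 9.69e-57), and 9.73% of all genes tested passed with these classes. Lines classed by the nearer tag alone gave -4.14. A lower TPM can mean fewer transcripts or fewer reads assigned to a diverged sequence, and these cannot be told apart here.

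UVR8 had 16.3 to 29.3 TPM in the light and 21.2 to 36.1 TPM in the dark in the 16 Tnz-1-like lines, against 72.6 to 163.7 TPM in the light and 78.5 to 170.9 TPM in the dark in the 43 Ws-2-like lines. Again the classes did not overlap. The log2 difference was -2.44 (SE 0.0505, adjusted p = 2.36e-45), where 8.75% of all genes tested passed. PHYC had 3.86 to 6.69 TPM in the light and 2.77 to 6.88 TPM in the dark in the 19 Tnz-1-like lines, against 19.6 to 36 TPM in the light and 21.4 to 33.9 TPM in the dark in the 34 Ws-2-like lines. It differed by -2.32 on the log2 scale (SE 0.0468, adjusted p = 1.18e-42), where 11% of all genes tested passed.

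PHYD was the mirror image, with the higher level in Tnz-1-like lines. It had 7.77 to 22.1 TPM in the light and 4.86 to 17.9 TPM in the dark in the 19 Tnz-1-like lines, against 2.76 to 6.60 TPM in the light and 1.59 to 3.82 TPM in the dark in the 37 Ws-2-like lines. The classes did not overlap, and the log2 difference was 1.29 (SE 0.0710, adjusted p = 6.37e-23), where 16.7% of all genes tested passed. Whether the known PHYD deletion of Ws bears on this was not tested. PHOT1 had 48.8 to 84.3 TPM in the light and 77.9 to 118.5 TPM in the dark in the 6 Tnz-1-like lines, against 86.8 to 183.7 TPM in the light and 131.1 to 227.2 TPM in the dark in the 52 Ws-2-like lines. It differed by -0.79 (SE 0.0785, adjusted p = 7.74e-12), where 3.13% of all genes tested passed.

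In the other 5 genes the classes overlapped. PHYB averaged 30.5 TPM in the light and 15.2 TPM in the dark in the 17 Tnz-1-like lines, against 38.1 TPM in the light and 20.6 TPM in the dark in the 47 Ws-2-like lines. The log2 difference was -0.36 (SE 0.0557, limma adjusted p = 8.60e-07), where 11.6% of all genes tested passed. The parents, with 1 library each per condition, went the other way. PHYB was higher in Tnz-1 than in Ws-2, at 29.8 against 19.3 TPM in the dark and 41.6 against 39.8 TPM in the light. CRY1 averaged 50.3 TPM in the light and 53.9 TPM in the dark in the 16 Tnz-1-like lines, against 35.99 TPM and 47.3 TPM in the 41 Ws-2-like lines, a log2 difference of 0.31 (SE 0.0522, adjusted p = 9.24e-06), where 19.8% passed; in the dark libraries alone it was 0.18 (adjusted p = 0.00244). CRY2 differed by 0.14 (SE 0.0349, adjusted p = 0.00573; 14 Tnz-1-like and 42 Ws-2-like lines), where 11.2% passed, and it lost the call with the line-number range as a term (adjusted p = 0.27), under median-of-ratios scaling (0.054), without near-identical lines (0.054) and in the dark libraries alone (0.083). PHYA differed by -0.34 (SE 0.0521, adjusted p = 7.61e-07) and PHYE by -0.34 (SE 0.0471, adjusted p = 5.30e-08), where 7.81% and 10.6% of all genes tested passed.

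**Figure D3:**
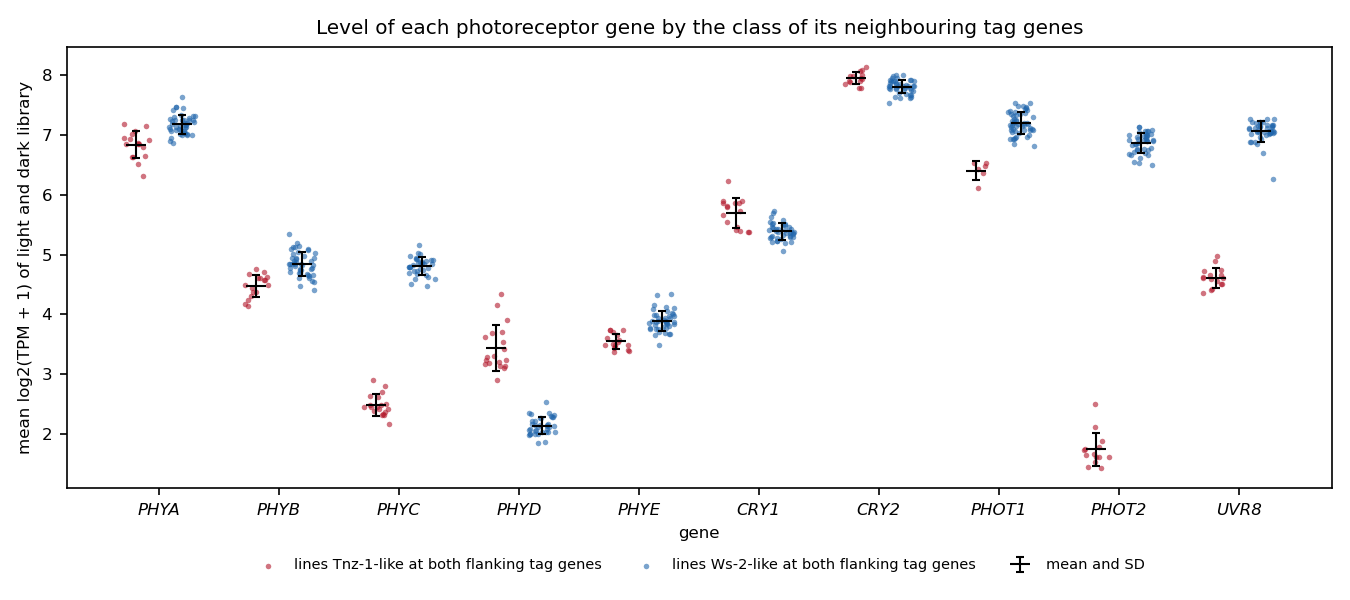
Mean log2(TPM + 1) of the light and dark library of each line, for lines Tnz-1-like (red, left) and Ws-2-like (blue, right) at both flanking tag genes of each photoreceptor gene, with mean and SD. The red and blue points are apart for PHYC, PHYD, PHOT1, PHOT2 and UVR8, with PHYD the only one of these higher in Tnz-1-like lines.

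The size of the light response also differed between the classes for 4 genes, PHYA, PHYE, PHOT2 and UVR8, by a test of the difference itself (limma on the light minus dark difference of each line). How often the light change of other genes differs with the class of their own flanking tags was not computed. PHYA changed by -0.47 ± 0.26 (SD, n = 17) on the log2 scale in Tnz-1-like lines and by -1.03 ± 0.40 (SD, n = 44) in Ws-2-like lines, a difference of 0.56 (SE 0.104, adjusted p = 0.00183). With the PHYA classes 0.298% of all genes tested passed. In the light the PHYA level had medians of 96.6 TPM in Tnz-1-like and 98.2 TPM in Ws-2-like lines. In the dark the medians were 133.4 TPM in Tnz-1-like and 211.4 TPM in Ws-2-like lines. The dark ranges still overlapped, at 85.2 to 177.05 TPM in Tnz-1-like and 120.2 to 323.3 TPM in Ws-2-like lines. Tested within the dark libraries alone the class difference was -0.63 (adjusted p = 1.85e-09), and within the light libraries alone it was -0.06 (adjusted p = 0.65).

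PHYE showed the opposite layout. It changed by 0.33 ± 0.24 (SD, n = 17) on the log2 scale in Tnz-1-like lines and by 0.68 ± 0.25 (SD, n = 42) in Ws-2-like lines, a difference of -0.35 (SE 0.0724, adjusted p = 0.00545), where 0.436% of all genes tested passed. In the light PHYE had 10.6 to 14.3 TPM in Tnz-1-like and 14.2 to 21.8 TPM in Ws-2-like lines, while in the dark it had 6.99 to 12.5 TPM in Tnz-1-like and 5.88 to 17.04 TPM in Ws-2-like lines. The class difference was -0.52 (adjusted p = 1.17e-15) within the light libraries alone and -0.17 (adjusted p = 0.16) within the dark libraries alone.

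For PHOT2 the change was 0.19 ± 0.39 (SD, n = 14) in Tnz-1-like and 0.52 ± 0.17 (SD, n = 42) in Ws-2-like lines, a difference of -0.32 (SE 0.0755, adjusted p = 0.0269), where 0.342% of all genes tested passed. UVR8 changed by -0.25 ± 0.17 (SD, n = 16) in Tnz-1-like and by -0.07 ± 0.15 (SD, n = 43) in Ws-2-like lines, a difference of -0.19 (SE 0.0474, adjusted p = 0.0406), where 0.64% passed. PHOT2 lost the call in 6 of 8 alternatives (adjusted p from 0.0253 to 0.291 over the 8) and UVR8 in 5 of 8 (0.0329 to 0.197), whereas PHYA and PHYE lost it in none of the 8. Without lines 48 and 58, a nearly identical pair, the adjusted p was 0.12 for PHOT2 and 0.10 for UVR8.

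The remaining 6 genes did not pass in this test. The difference in light change was 0.10 for PHYB (adjusted p = 0.46), 0.16 for PHYC (0.46), 0.01 for PHYD (0.97), 0.26 for CRY1 (0.098), 0.11 for CRY2 (0.42) and -0.07 for PHOT1 (0.82), each Tnz-1-like minus Ws-2-like on the log2 scale. With their classes, 1.15% of all genes tested passed for PHYB, 0.177% for PHYC, 1.13% for PHYD, 3.64% for CRY1, 0.105% for CRY2 and 0.0607% for PHOT1.

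**Figure D4:**
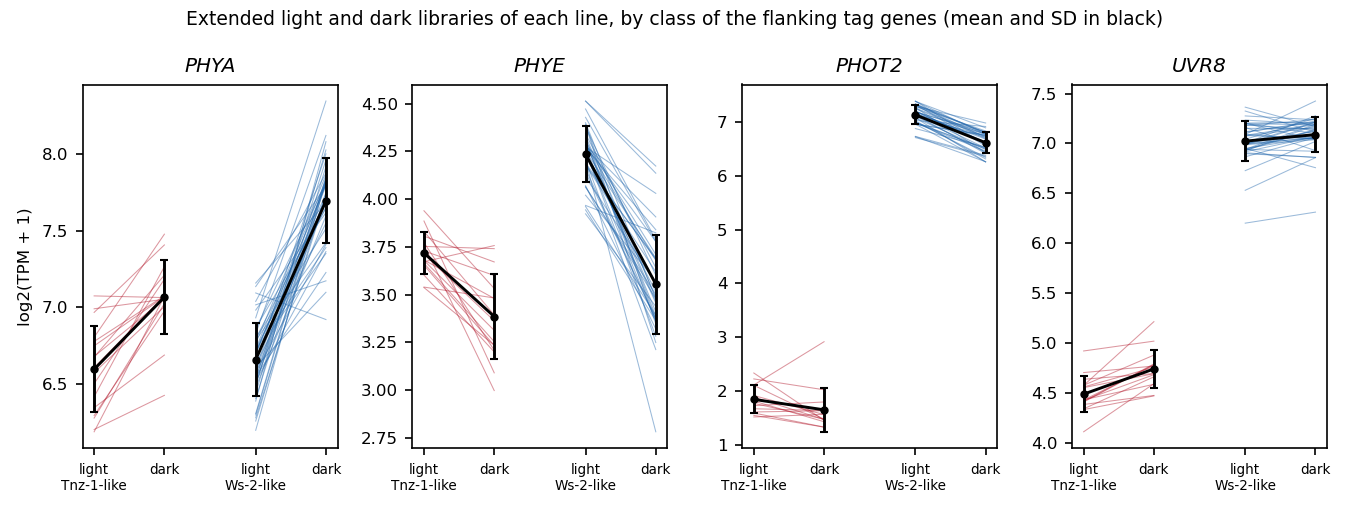
log2(TPM + 1) in the light and the dark library of each line, joined by a line, for Tnz-1-like (red) and Ws-2-like (blue) lines at the flanking tags of PHYA, PHYE, PHOT2 and UVR8, with mean and SD in black. For PHYA the class means differ in the dark (134.7 against 209.5 TPM) and are close in the light (97.6 against 101.5 TPM). For PHYE they differ more in the light than in the dark. The classes of PHYA and PHYE overlap in both conditions.

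Photoreceptor genes on the same chromosome partly shared their classes. PHOT2 and UVR8, both on chromosome 5, were classed in 55 lines: 12 were Tnz-1-like and 38 Ws-2-like at both, 2 were Tnz-1-like at PHOT2 only and 3 at UVR8 only. PHYD and PHYE, both on chromosome 4, had the same class in all 51 lines classed for both, 16 Tnz-1-like and 35 Ws-2-like, although PHYD was higher and PHYE lower in the Tnz-1-like lines. PHYC and PHOT2, also both on chromosome 5, were classed together in 46 lines, of which 14 were Tnz-1-like at PHYC only and 7 at PHOT2 only.

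When each of 641 tag genes (640 for PHOT2, which is itself a tag) was set against each photoreceptor gene, a comparison chosen after the data were seen and given without a test, the tag with the highest share of the line-to-line variance lay on the gene's own chromosome for 9 of 10. It held 99.1% for PHOT2 (AT5G59770), 97.7% for UVR8 (ERS), 97.7% for PHYC (PP2C74), 84.1% for PHYD (EXLB1), 60.2% for PHOT1 (HRS1), 49.6% for PHYE (DEG5), 44.4% for CRY1 (AT4G08520), 42.9% for PHYA (AT1G09200) and 42.85% for PHYB (AT2G18410). For CRY2, on chromosome 1, the highest share was 41.9%, at AT5G38720 on chromosome 5, against 20.15% at the best tag of chromosome 1. AT5G38720 was also the best tag for CRY1 outside chromosome 4, at 38.5%. PHYD had 74.5% at scpl22, which the reference places on chromosome 2. Set against the light change instead, the best tags of PHYA, PHYE, PHOT2 and UVR8 lay on the gene's own chromosome. They were BAG5 for PHYA (42.35%, 287 genes between) and AT4G22212 for PHYE (37.4%, 441 genes between). For PHOT2 it was HSP81-2 (26.7%, 229 genes between) and for UVR8 AT5G62300 (23.7%, 163 genes between). How often the best tag of other genes lay on their own chromosome was not computed.

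**Figure D5:**
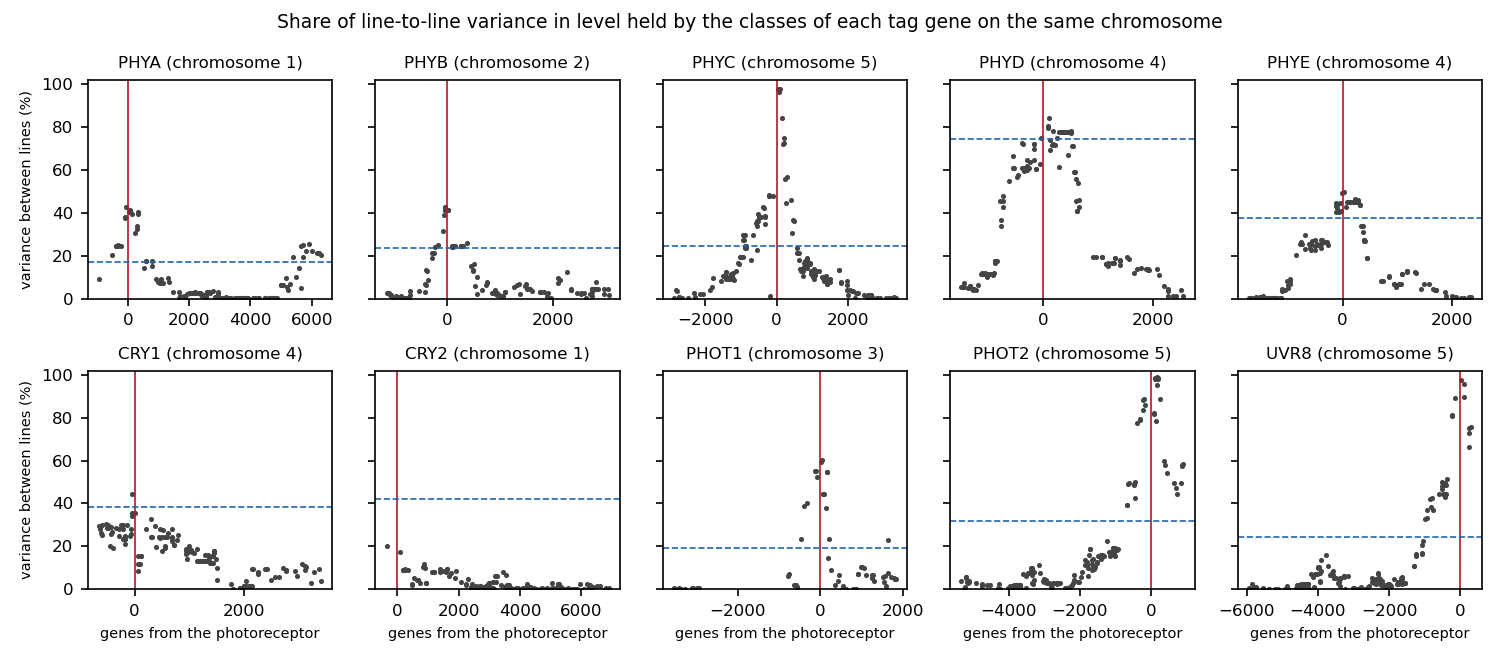
Share of the line-to-line variance in level of each photoreceptor gene held by the classes of each tag gene on the same chromosome, against the number of genes between tag and photoreceptor (vertical line at 0). The dashed line is the best tag on any other chromosome, which is exceeded on the own chromosome for each gene but CRY2.

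The genes whose levels went most closely with a photoreceptor gene over the 65 line means were mostly its neighbours. For PHYA to PHYE, PHOT1, PHOT2 and UVR8, the 3 genes with the highest Pearson r all lay on the same chromosome. PHYC had r = 0.99 with PP2C74, 35 genes away, UVR8 had r = 0.99 with ERS, 19 genes away, and PHYD had r = 0.94 with ACX1, 62 genes away. For CRY1 the top gene was NdhS (r = 0.77), far off on the same chromosome, and the other two lay elsewhere. For CRY2 all 3 lay on other chromosomes, with CCT1 first (r = 0.78). These correlations describe lines that share long parental segments, and they have no p. How often the most alike genes of other genes lay on the same chromosome was not computed.

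Among themselves, PHYA, PHYB, PHYE, CRY1 and CRY2 could be correlated over lines, as their classes overlapped, which gave 10 pairs per condition. CRY1 and CRY2 went together most closely in the light (r = 0.76, rho = 0.70, permutation adjusted p = 1e-04 for both, the smallest that 100000 resamples can give after adjustment, n = 65). Without the 2 lines farthest from the median r was 0.70, and with values centred within the ranges of line number it was 0.70. In the dark it was weaker (r = 0.37, rho = 0.40, permutation adjusted p = 0.0237 and 0.0109), and within the ranges it did not pass (r = 0.32, adjusted p = 0.088). The difference between the conditions was not tested. In the light library of line 58, CRY1, CRY2, PHYA, PHYB and PHOT1 all had the highest value of any light RIL library. In all, 6 pairs passed in the light and 1 in the dark, but without near-identical lines 2 passed in the light and 0 in the dark. Under median-of-ratios scaling 2 passed in the light and 1 in the dark. The share of pairs that would pass among all genes tested was not computed.

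The spread between lines differed between the conditions for 3 genes. The mean absolute deviation from the median, on the log2 scale, was larger in the light for CRY1 (0.26 in the light and 0.13 in the dark, adjusted p = 0.00654) and CRY2 (0.15 in the light and 0.08 in the dark, adjusted p = 0.00347), and smaller in the light for PHYA (0.19 in the light and 0.32 in the dark, adjusted p = 0.0427). Of all genes tested, 0.64% spread more and 1.15% less in the light. With deviations measured inside each range of line number, none of the 3 passed (adjusted p = 0.085, 0.38 and 0.17 for CRY1, CRY2 and PHYA), and without near-identical lines PHYA did not pass (adjusted p = 0.12).

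Known partners and close downstream genes of the receptors, 56 listed and 53 tested, were read from the same light comparison. Of the 53, 27 rose and 19 fell, against 36.1% and 25.5% of all genes tested, and the median log2 change was 0.17, beside 0.05 for all genes tested. On the UVR8 list 8 of 9 rose, 1 fell, and the median log2 change was 1.15. HYH, a relative of the transcription factor HY5, averaged 17.9 ± 5.7 TPM in the light and 4.55 ± 2.29 TPM in the dark (SD, n = 65), and was higher in the light in 65 of 65 lines (log2 change 1.83). HY5 itself changed by 1.27, SPA1 by 1.56, SPA4 by 1.496 in 65 of 65 lines, and COP1 by 0.69, where the SPA proteins act with COP1 to mark light-signalling factors for degradation. RUP1 and RUP2, which return UVR8 to its inactive dimer, moved in opposite directions: RUP1 changed by -0.80 and RUP2 by 0.91, both at low levels (3.14 and 2.78 TPM in the light, 6.37 and 0.91 TPM in the dark). With a pseudocount of 0.1 the log2 change of RUP2 was 1.64. The labels name no UV-B treatment.

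Of the 17 phytochrome partners tested, 8 rose and 8 fell, where 36.1% of all genes tested rose and 25.5% fell. PKS2, a phytochrome kinase substrate protein that acts in phototropism, averaged 8.92 ± 3.22 TPM in the light and 37.8 ± 12.0 TPM in the dark, and fell in 65 of 65 lines (log2 change -1.97). PKS4 changed by -0.94, TZP, a nuclear partner of the phytochromes, by 1.02, and ARR4, a response regulator that binds phytochrome B, by 0.97. Of the genes that make the phytochrome chromophore, HY2 rose (0.35, adjusted p = 9.15e-11), and HY1 had 174.1 TPM in the light and 169.8 TPM in the dark (log2 change 0.03, adjusted p = 0.51, with -0.01 under median-of-ratios scaling).

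Of the 14 tested genes on the list of cryptochrome partners and other blue-light flavoproteins, 6 rose and 5 fell. Of all genes tested, 36.1% rose and 25.5% fell. AT3G52740 averaged 40.1 ± 9.44 TPM in the light and 7.87 ± 2.99 TPM in the dark and rose in 65 of 65 lines (log2 change 2.26). FKF1, a flavin-binding F-box protein of the flowering pathway, rose by 1.24 in 65 of 65 lines, and CRY3, a cryptochrome of the organelles, by 0.90. PLP changed by -1.24. UBP12, a cryptochrome-binding ubiquitin protease, LKP2 and AT3G03940 did not pass.

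Of the 13 phototropin partners, 5 rose and 5 fell, where 36.1% of all genes tested rose and 25.5% fell. PIN3, an auxin efflux carrier used in phototropism, averaged 94.7 ± 22.0 TPM in the light and 282.3 ± 70.4 TPM in the dark, and fell in 65 of 65 lines (log2 change -1.56). NPH3, the phototropin-binding adaptor required for phototropism, changed by -0.88, and AT5G67385, annotated as an NPH3 family protein, by -0.79. PMI2, a protein of chloroplast movement, rose by 0.72 in 65 of 65 lines. BLUS1, a phototropin target kinase of stomatal guard cells, AT3G01490 and AT1G64500 did not pass.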

How the data were processed

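Poly(A) RNA of whole seedlings was sequenced from 65 RILs and both parents in extended light and in the dark, and 134 libraries were used. The authors deposited 1 table of TPM for 28775 genes; per the submitters' processing notes, cutadapt 3.4, Salmon 1.6.0 and GATK were used with the TAIR10 build, with no role or order given, and per the labels' protocols the libraries were directional. Columns summed to 1000000 within rounding. TPM keeps no depth, so no counting interval is given. How reads of diverged Tnz-1 or Ws-2 alleles were assigned is not given in the sources used here. The photoreceptor genes and the partner lists were chosen with earlier results of these data known.

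From the TPM, log2(TPM + 1) was computed for the 18111 genes with a mean of at least 1 over the 130 RIL libraries, so that log2 changes understate those of low genes. Tests used limma (version 3.58.1, under R 4.3.3, with a trended prior) and Benjamini-Hochberg adjustment over all genes tested, at 0.05. Line numbers pair libraries, since the labels give the light and the dark library of a number the same genotype: departures from the group mean correlated over genes within a line with r of 0.492 to 0.886 (median 0.772), against a median of -0.0208 between different lines, and the library of the own line was the best match in 58 of 65. Tag classes used the outer 35% of the interval between the parents on each side, with at least 58 lines called and at least 5 per class. Near-identical lines shared at least 95% of tag calls. Correlations and neighbours in the order of levels were tested by permutation (100000 resamples, two-sided). The pairs were to be adjusted over 45, but pairs with a gene whose lines fall into separate classes were left out, which left 10. Each test was first checked on simulated data with independent normal noise. Near-identical lines were not simulated, and the sign-flip check held no levels that fall into separate sets.

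Genes were named from all 10 photoreceptor genes, their flanking tags, for each the 3 genes most alike by r, the lowest and highest lines, and in each partner list the 4 genes with the largest change past the threshold, plus RUP, COP1 and chromophore genes; other genes named were chosen after their values were seen. Names, neighbour order and sequences come from RefSeq's TAIR10.1 annotation, which held 28009 of the 28775 identifiers (97.3%). Alternatives were another pseudocount (0.1), no filter, a mean of at least 5, median-of-ratios scaling, scaling without the 10 most abundant genes, the line as a block, line-number ranges, near-identical lines left out, the nearer tag alone, each condition alone, and, added after the data were seen, leaving out lines 48 and 58.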

Additional observations from a re-analysis of the deposited data

Results flagged for a closer look

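The light change differed between lines Tnz-1-like and Ws-2-like at the flanking tags, by the test of the difference itself, for 4 photoreceptor genes, with log2 differences of 0.56 for PHYA, -0.35 for PHYE, -0.32 for PHOT2 and -0.19 for UVR8 (Tnz-1-like minus Ws-2-like, limma adjusted p = 0.00183, 0.00545, 0.0269 and 0.0406). PHYA and PHYE kept an adjusted p under 0.05 in all 8 alternatives run for this comparison, while PHOT2 lost the call in 6 and UVR8 in 5 of the 8. In the Tnz-1-like lines PHOT2 lay at 1.51 to 6.54 TPM in the dark, where adding 1 to the TPM shrinks a log2 change. In the parents, with 1 library each, the log2 difference between light and dark was -0.31 in Tnz-1 and -0.95 in Ws-2 for PHYA, -0.04 and 0.51 for PHYE, 0.02 and 0.32 for PHOT2, and -0.26 and -0.00 for UVR8.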

How the results depend on the processing

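Blocking on the line (replicate block), the count of photoreceptor genes past the threshold in the light response was 10, against 7 without it, and the partner genes numbered 48 against 46. The block also brought PHYB past the threshold for spread (-0.10, adjusted p = 0.00298), as did a pseudocount of 0.1 and median-of-ratios scaling. The count of genes whose spread differed was 0 when deviations were taken within line-number ranges, against 3. The count of genes whose light change differed by tag class was 4, and it was 2 under median-of-ratios scaling, with the line-number range as a term, without near-identical lines, with the nearer tag alone and without lines 48 and 58. The count of correlated pairs was 7, and it was 3 under median-of-ratios scaling, 4 when centred within line-number ranges and 2 without near-identical lines. PHYD's difference in light change by tag class turned to -0.069 with a pseudocount of 0.1 and to -0.0018 under median-of-ratios scaling, and HY1 turned to -0.0107 under that scaling; none of these passed in any fit. Of 516 values of single genes under an alternative, 484 kept direction and side of the threshold, 23 lost the threshold, 6 gained it and 3 changed sign; the cause was not tested. All counts of genes with a line effect, of genes differing by tag class and of order neighbours stayed within 1.5 times. The unknown depth and the single library per line and condition limit how low genes such as PHYD, RUP1 and RUP2 can be read.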

Other observations

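Some lines had levels between those of the Tnz-1-like and Ws-2-like classes in both conditions. For PHOT2 there were 7 such lines, with 19.45 to 80.9 TPM in the light and 16.4 to 54.2 TPM in the dark, and for UVR8 there were 4, with 35.2 to 62.5 TPM in the light and 39.1 to 67.4 TPM in the dark. All 4 of the UVR8 lines (2, 16, 31 and 64) were among the 7 of PHOT2. Line 2 had 23.1 TPM of PHOT2 in the light and 23.65 TPM in the dark, and line 64, which had nearly the same tag calls as line 2, had 19.45 TPM in the light and 16.4 TPM in the dark. For PHYC 1 line lay between the classes, line 55, with 14.1 TPM in the light and 11.7 TPM in the dark. For PHYD and PHOT1 no line lay between them in both conditions.

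The light library of line 58 was the highest light RIL library for 5 of the 10 photoreceptor genes, and the dark library of line 24 was the lowest dark RIL library for PHYA, PHYD and PHYE. Line 48, whose tag calls equalled those of line 58 in 100% of tags, had the largest rise of CRY1 (0.54) and CRY2 (0.36) and the largest fall of PHOT2 (-0.80) and UVR8 (-0.64) in the light, on the log2 scale. It was Tnz-1-like at the flanking tags of PHOT2 and UVR8. In that class PHOT2 was low, at 1.86 to 4.04 TPM in the light and 1.51 to 6.54 TPM in the dark.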
